A study of Mus musculus with 36 samples.

Results

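The genes described here are the cytochrome P450 genes of families 1 to 3 in mouse liver. They were taken as all genes whose single annotated symbol is Cyp1, Cyp2 or Cyp3 followed by a subfamily letter and a number. The rule found 57 genes among the 22180 measured, each represented by the probe set with the highest mean. The other 35 measured P450 genes belong to families 4 and above and are not members. The study compared livers of WT mice with livers of mice labelled TB, of genotype KrasLSL-G12D;p53fl/fl and with lung adenocarcinoma given as their disease, all on the C57BL/6 strain. The light cycle was 12 h on and 12 h off. Livers were taken at Zeitgeber times (ZT, hours after lights on) 0, 4, 8, 12, 16 and 20, with 3 arrays in each of the 12 groups. The question was how a tumour in the lung relates to the daily program of a distant organ. The labels give neither the age or sex of the mice nor the way in which the conditional alleles were activated, and they give no further treatment for either genotype. They do not say that each array is a separate animal, so the p-values may reflect only technical spread between samples.

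Cytochrome P450 enzymes of families 1 to 3 insert oxygen into lipophilic compounds, which makes drugs, dietary chemicals, steroids and fatty acids more soluble and open to conjugation. Most sit in the endoplasmic reticulum of hepatocytes, carry heme, and take electrons from P450 reductase and cytochrome b5. Their genes lie in tandem clusters of close relatives and respond to a few ligand-activated factors, the aryl hydrocarbon receptor for family 1, CAR for subfamily 2b and PXR for subfamily 3a. In mouse liver several members are also sex-biased under the pulse pattern of growth hormone, and PAR bZIP clock output factors and heme supply are known to give some of them a daily rhythm.

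The members fell into 16 subfamilies, of which 2c (14 genes), 2d (9), 2j (7), 3a (7), 2b (5) and 2a (4) were the largest. The clusters lie on chromosome 19 (2c), 15 (2d), 4 (2j), 5 (3a) and 7 (2a and 2b), on mouse assembly GRCm38.p6. Cyp2d13 is annotated as a transcribed pseudogene. Values are given as log2(intensity + 16), called log2 from here on. With this added constant, differences of weak probe sets are understated, which concerns above all the 16 members whose mean intensity was under 32. Levels of different genes are not compared, because each probe set has its own efficiency. A further 3 probe sets were annotated to several members or to members and other genes (Cyp2c67 with Cyp2c68, and, in 2 of them, Cyp3a11 and Cyp3a44 with Cyp3a41a and Cyp3a41b) and were left out. Cross-hybridization between near-identical relatives was not tested for the probe sets with 1 symbol.

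The hepatocyte marker Alb stood between 13.47 and 13.66 log2 in all 36 arrays. The Y-linked Eif2s3y, Kdm5d and Uty were at 6.49 or above and Xist at 5.69 or below in every array. WT ZT 12 replicate 3 stood apart with skeletal muscle transcripts, such as Ttn at 16.77 against at most 6.19 in the 35 other arrays. The arrays also fell into a larger set of 24 and a smaller set of 12, with 1 array of each group in the smaller set. These sets were found from the data, are not named in the labels, and differed in 6784 genes (30.6%) and in 7 of 57 members (12.3%). The 7 were Cyp2a5, Cyp2b13, Cyp2c40, Cyp2d10, Cyp2d12, Cyp2d26 and Cyp2j13. Values within each set are given beside some of the results. The median SD within groups was 0.24 log2 for members and 0.18 for all genes.

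Averaged over the 6 times of day, no member differed between TB and WT past the threshold (adjusted p under 0.05 in limma, Benjamini-Hochberg over all 22180 genes). The background was 39 genes called, 0.176% of all genes. At an unadjusted p under 0.05 there were 11 members (19.3%), against 11% of all genes. The differences were balanced in sign, 29 of 57 positive with a median of 0.00077, against 53.9% of all genes positive with a median of 0.0073. After median centring of the arrays 23 of 57 were positive, with a median of −0.024, against a median of −0.018 for all genes. In the larger array set alone 5 members passed (Cyp1a2, Cyp2c38, Cyp2d10, Cyp2j6 and Cyp3a11), with a background of 5.19%, and in the smaller set none passed (0% of all genes). With all arrays kept and the array set as a block, no member passed (0.681% of all genes). The sign of the difference was opposite in the sets for 28 of the 57 members. Counts of 1 and 2 arose when WT ZT 12 replicate 1 or TB ZT 8 replicate 2 was left out (0.469% and 0.491% of all genes).

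**Figure D1:**
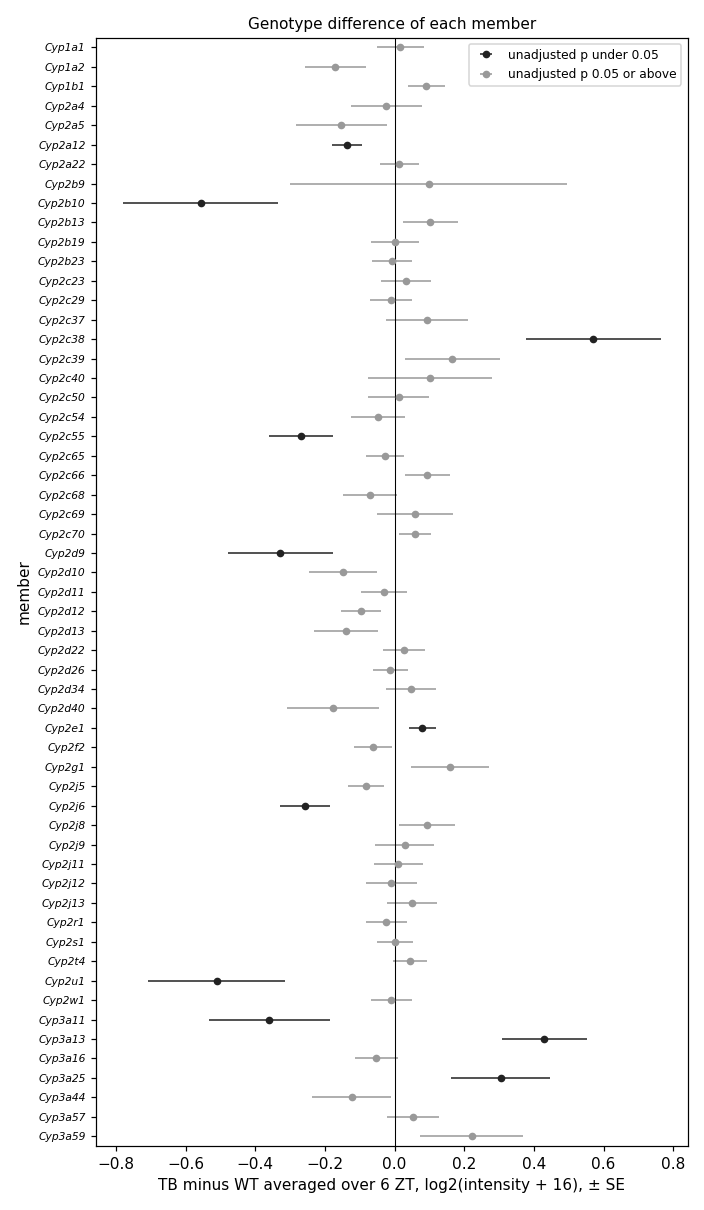
TB minus WT difference of each of the 57 members averaged over 6 ZT, in log2(intensity + 16), with SE bars from limma; black points had an unadjusted p under 0.05. The points lie on both sides of 0, from −0.56 for Cyp2b10 to 0.57 for Cyp2c38, and no member passed the adjusted threshold.

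The 4 members with the smallest p for the averaged difference were Cyp2j6, Cyp3a13, Cyp2a12 and Cyp2c38. Cyp2j6, an arachidonic acid epoxygenase, had a mean of 8.66 in WT and 8.41 in TB, a difference of −0.26 ± 0.072 (SE, n = 18 per genotype, limma adjusted p = 0.148). It was lower in TB at 6 of 6 times, and the difference was −0.35 among the 24 arrays and −0.08 among the 12. Cyp3a13 had means of 9.90 and 10.33, a difference of 0.43 ± 0.121 or 1.35-fold (limma adjusted p = 0.150). It was higher in TB at 6 of 6 times, with 0.44 among the 24 arrays of the larger set and 0.41 among the others. Cyp2a12, a steroid hydroxylase, differed by −0.14 ± 0.044 (limma adjusted p = 0.202) and was lower at 5 of 6 times. Cyp2c38 differed by 0.57 ± 0.193 or 1.48-fold (limma adjusted p = 0.238), was higher at 6 of 6 times, with 0.72 in the larger and 0.28 in the smaller set. For Cyp2j6 and Cyp3a13 the adjusted p went below the threshold without TB ZT 8 replicate 2 (0.0206 and 0.0369), and for Cyp3a13 also without WT ZT 12 replicate 1 (0.0285).

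Daily rhythm was tested by fitting a 24 h cosine to each genotype. The amplitude is the height of the cosine above its mean in log2, and the peak is given as ZT. In WT liver 4 of 57 members (7.02%) were rhythmic, beside 6.45% of all genes (unadjusted 9 members, 15.8% against 16.8%). They were Cyp2a4, Cyp2g1, Cyp2c70 and Cyp2a5. In TB liver 10 of 57 (17.5%) were rhythmic, beside 4.95% of all genes (unadjusted 17 members, 29.8% against 16.8%). These were Cyp3a44, Cyp2c70, Cyp2r1, Cyp3a11, Cyp3a25, Cyp2j6, Cyp2g1, Cyp2c55, Cyp2c29 and Cyp2b10. Cyp2c70 and Cyp2g1 were called in both genotypes. The TB peaks of 7 of the 10 fell between ZT 20 and ZT 24, late in the dark phase, where 46.9% of the 1099 genes rhythmic in TB also peaked. The exceptions were Cyp2c55 just before it, Cyp3a25 at ZT 3.40 and Cyp2g1 at ZT 9.20. The WT peaks were at ZT 9.76 (Cyp2g1), 14.4 (Cyp2a5), 14.7 (Cyp2a4) and 23.0 (Cyp2c70).

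The difference in call does not show that the rhythms differed between the genotypes. The test of equal cosine and sine terms called no member and none of all genes (0% background; smallest adjusted p of a member 0.985). At an unadjusted p under 0.05 there were 7 members (12.3%) against 4.8% of all genes, and 5 of these belonged to subfamily 3a. Amplitudes were higher in TB for 34 of 57 members (59.6%), against 50.5% of all genes. Leaving out TB ZT 0 replicate 3 or TB ZT 8 replicate 1 gave 5 TB rhythms (3.56% and 3.84% of all genes). Leaving out TB ZT 12 replicate 1 gave 6 (3.42%). The larger array set alone gave 5 (4.26%). With all arrays kept and the array set as a block, the count stayed at 10 (7.48%). The count was 0 in the smaller array set, where 0.0857% of all genes passed.

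**Figure D2:**
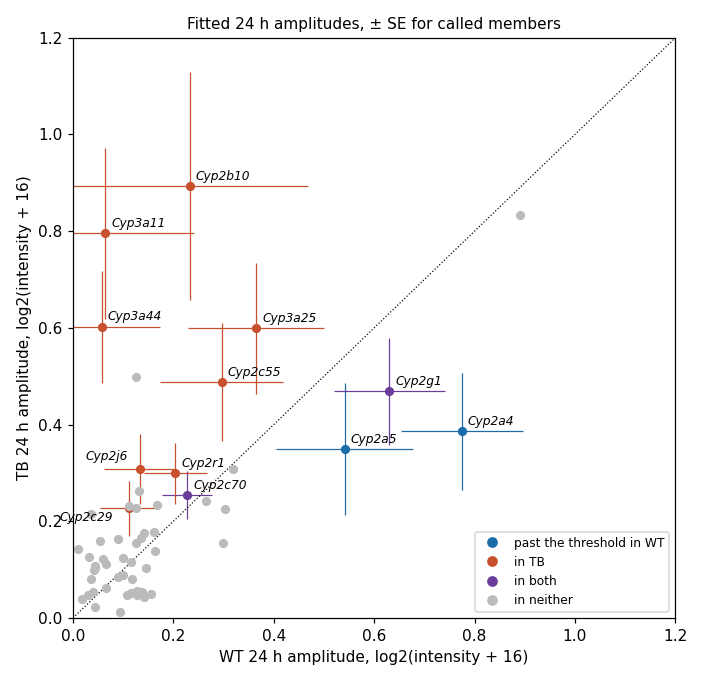
Fitted 24 h amplitude of each member in WT (horizontal) and TB (vertical), both in log2(intensity + 16), with SE bars for members past the threshold and a dotted line of equal amplitudes. Of the 10 members called in TB 9 lie above the line, and of the 4 called in WT 3 lie below it, a direction that choosing members by their rhythm in 1 genotype favours.

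**Figure D3:**
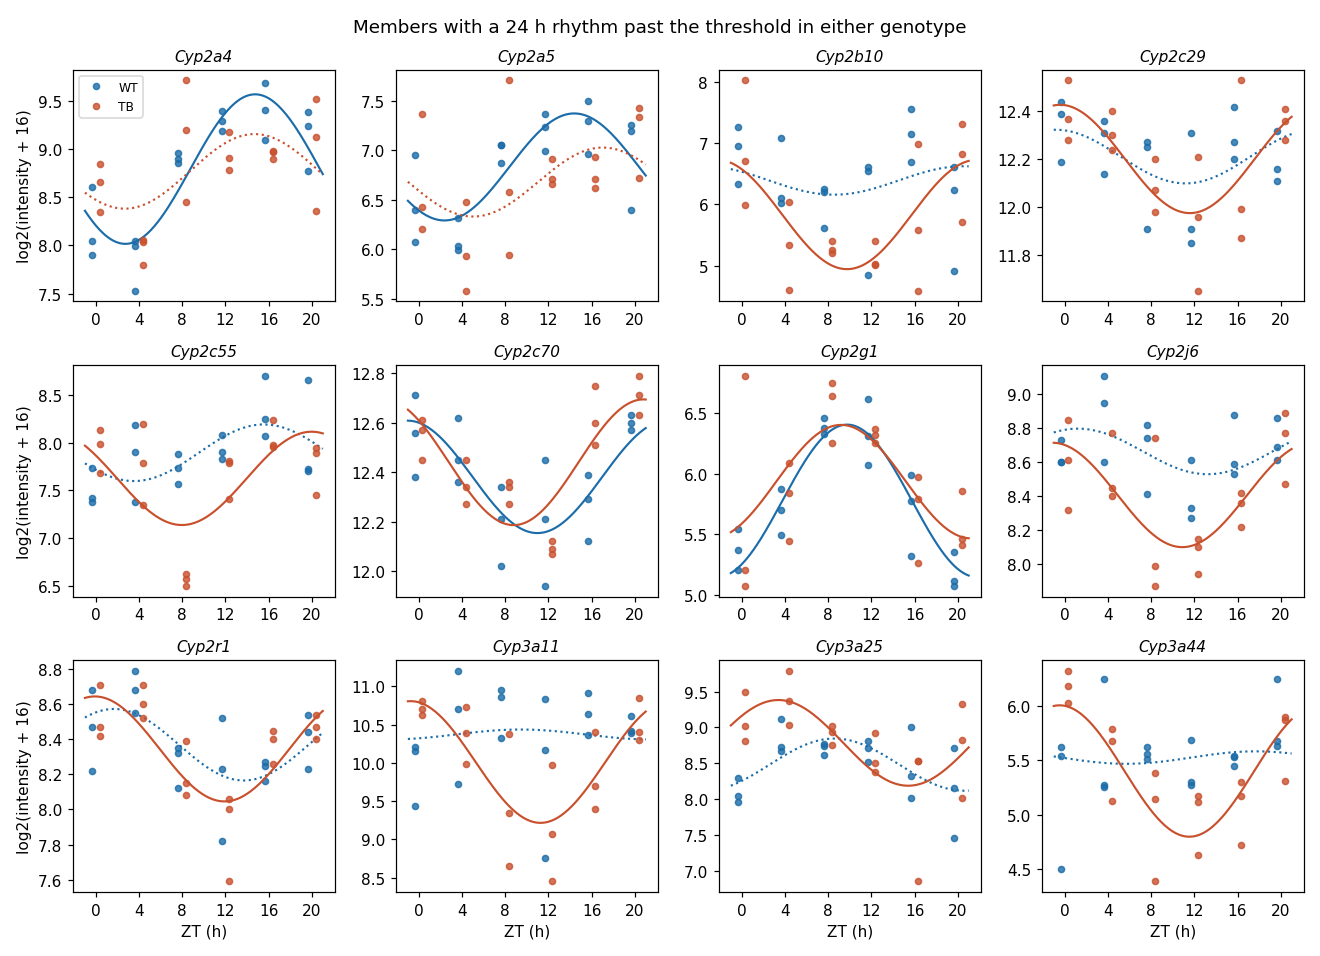
Single arrays of the 12 members with a rhythm past the threshold in either genotype, by ZT in h (WT blue, TB red, drawn side by side), in log2(intensity + 16). Curves are the fitted 24 h cosines, solid where the rhythm passed the threshold in that genotype and dotted where it did not; Cyp3a11 and Cyp3a44 have nearly flat WT curves and troughs near ZT 12 in TB.

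In subfamily 2a, Cyp2a4, a steroid hydroxylase, and its close relative Cyp2a5 in the same cluster, a coumarin hydroxylase that also acts on nicotine, followed a similar course through the day in WT. Cyp2a4 stood at 8.05, 7.90 and 8.60 in the WT arrays at ZT 0 and at 7.53, 8.05 and 7.99 at ZT 4. It reached 9.40, 9.68 and 9.09 at ZT 16. All WT arrays from ZT 8 to ZT 20 lay above all those of ZT 0 and ZT 4. The WT amplitude was 0.77 ± 0.121 (SE, peak over trough 2.93-fold, peak ZT 14.7, limma adjusted p = 1.4e-04). In TB the amplitude was 0.39 ± 0.121 (limma adjusted p = 0.130) with a peak at the same ZT 14.7. At ZT 16 the TB arrays were at 8.97, 8.89 and 8.98, all under the WT arrays of that time. The difference in rhythm had an unadjusted p of 0.0906.

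Cyp2a5 had a WT amplitude of 0.54 ± 0.136 with a peak at ZT 14.4 (limma adjusted p = 0.0292). It was lowest in WT at ZT 4, with 5.99, 6.32 and 6.03, and stood at 7.30, 7.50 and 6.96 at ZT 16. The TB arrays at ZT 16 were at 6.93, 6.71 and 6.62, again below the WT arrays. In TB the amplitude was 0.35 ± 0.136 (limma adjusted p = 0.295). Both Cyp2a4 and Cyp2a5 were called rhythmic in TB without TB ZT 8 replicate 2 and with array weights, Cyp2a5 also in the larger array set, and Cyp2a4 also with time as a factor. The WT call of Cyp2a5 was lost without any 1 of 6 WT arrays (adjusted p 0.0539 to 0.0776), whereas Cyp2a4 kept its call with each of the 36 arrays left out. Within the larger and smaller array sets the WT amplitudes were 0.76 and 0.81 for Cyp2a4 and 0.62 and 0.50 for Cyp2a5. The other 2a members, Cyp2a12 and Cyp2a22, were not called in either genotype.

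The promoters of Cyp2a4 and Cyp2a5 are shown because these relatives followed a similar course in WT, and that of Cyp2b10 because it holds the same short motif. The probe sets of Cyp2a4 and Cyp2a5 may share signal, which was not tested. RefSeq windows on GRCm38.p6, from 250 bases before to 50 bases after the gene start, were found for 49 of the 57 members. The 250 bases upstream of Cyp2a4 and Cyp2a5 were 97.6% identical. The stretches shown are at chr7:26307086-26307165 (+), chr7:26835232-26835311 (+) and chr7:25897564-25897643 (+). The capitals mark TTGCATAA, which is TTATGCAA on the other strand, a sequence of the kind bound by C/EBP and PAR bZIP factors. The matches begin at positions −70, −71 and −58, where negative positions count bases before the start.
Cyp2a4: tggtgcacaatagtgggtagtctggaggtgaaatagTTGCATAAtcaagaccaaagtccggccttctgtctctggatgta
Cyp2a5: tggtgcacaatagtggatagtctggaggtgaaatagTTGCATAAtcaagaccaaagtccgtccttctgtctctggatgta
Cyp2b10: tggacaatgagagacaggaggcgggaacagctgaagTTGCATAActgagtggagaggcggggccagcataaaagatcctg
TTATGCAA was found on either strand in 5 of 49 member windows (10.2%; Cyp2a4, Cyp2a5, Cyp2b10, Cyp2b19 and Cyp2b23) and in 0.89% of 27025 genes. Cyp2b19 and Cyp2b23 were not rhythmic in either genotype. This motif was added after the windows were seen, and the 5 genes are close relatives that share sequence. The D-box TTATGTAA was in 0 of 49 member windows and 1.11% of all genes.

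In subfamily 2b, Cyp2b10, the classical target of CAR, was rhythmic in TB with an amplitude of 0.89 ± 0.236 and a peak at ZT 21.7 (limma adjusted p = 0.0493). The TB arrays stood at 5.99, 6.71 and 8.03 at ZT 0 and at 5.03, 5.41 and 5.01 at ZT 12. The WT arrays were at 6.96, 6.34 and 7.26 at ZT 0 and at 6.62, 4.85 and 6.55 at ZT 12. At both times the genotypes overlapped. The WT amplitude was 0.23 ± 0.236 (limma adjusted p = 0.893). The TB call held in only 10 of 36 cases with 1 array left out, with adjusted p-values up to 0.148 (without TB ZT 0 replicate 3). Averaged over time Cyp2b10 differed by −0.56 ± 0.223 (limma adjusted p = 0.328), and its SD within groups was 0.73. Among the arrays of the larger set it was −0.62, and among the others −0.44. Cyp2b13 differed by 0.10 ± 0.079, and neither Cyp2b13, Cyp2b19 nor Cyp2b23 was called in any test.

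In subfamily 2c, Cyp2c70, which makes the muricholic acids typical of mouse bile, was rhythmic in both genotypes. Its WT amplitude was 0.23 ± 0.049 with a peak at ZT 23.0 (limma adjusted p = 0.00846). Its TB amplitude was 0.25 ± 0.049 with a peak at ZT 20.8 (limma adjusted p = 0.00312). The WT arrays stood at 12.63, 12.60 and 12.57 at ZT 20 and at 12.45, 11.94 and 12.21 at ZT 12. The TB arrays stood at 12.79, 12.63 and 12.71 at ZT 20 and at 12.12, 12.07 and 12.09 at ZT 12. In each genotype the ZT 20 arrays were all above the ZT 12 arrays. At ZT 16 the TB arrays, at 12.75, 12.51 and 12.60, lay above the WT arrays, at 12.29, 12.39 and 12.12, a difference of 0.35 ± 0.113 (SE, n = 3 per genotype; limma adjusted p = 0.854). Both rhythm calls held with each of the 36 arrays left out. The WT call was lost with time as a factor of 6 levels, and the TB call in the larger array set alone. Both were lost in the smaller array set alone.

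Cyp2c55, an inducible arachidonic acid hydroxylase, had the smallest adjusted p of the members at any single time. At ZT 8 the TB arrays were at 6.57, 6.50 and 6.63 and the WT arrays at 7.57, 7.73 and 7.88. The groups did not overlap, and these 3 TB arrays were the lowest of all 36. The difference was −1.16 ± 0.225 (SE, n = 3 per genotype; limma adjusted p = 0.0704). In TB the gene was rhythmic with an amplitude of 0.49 ± 0.123 and a peak at ZT 20.0 (limma adjusted p = 0.0356), with adjusted p from 0.127 to 0.143 without any 1 of the 3 arrays at ZT 8. The WT amplitude was 0.30 ± 0.123 (limma adjusted p = 0.353). The unadjusted p of its dependence on ZT was 0.00154, the smallest among members (limma adjusted p = 1).

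Cyp2c29, an abundant liver enzyme, was rhythmic in TB with an amplitude of 0.23 ± 0.058 and a peak at ZT 23.6 (limma adjusted p = 0.0394). TB arrays stood at 12.28, 12.53 and 12.37 at ZT 0 and at 11.65, 12.21 and 11.96 at ZT 12. The WT amplitude was 0.11 ± 0.058 (limma adjusted p = 0.546), and the TB call was lost in 11 of the 36 cases with 1 array left out. Cyp2c38 ranged in TB from 8.76 to 10.78 and in WT from 8.25 to 9.97, so the genotypes overlapped widely. At ZT 4 its TB arrays, at 10.46, 10.39 and 9.45, lay above the WT arrays, at 9.06, 8.84 and 8.61, a difference of 1.27 ± 0.474 (limma adjusted p = 1.00). Cyp2c37 differed by 0.85 ± 0.287 at ZT 8 (limma adjusted p = 0.776) and by 0.53 ± 0.287 at ZT 20 (limma adjusted p = 1). Cyp2c54 differed by 0.36 ± 0.192 at ZT 20 (limma adjusted p = 1). Averaged over time, 9 of the 14 2c members were higher and 5 lower in TB, with a median of 0.046.

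Subfamily 3a held 3 of the 10 members called in TB and none of the 4 called in WT. With time as a factor of 6 levels, Cyp3a44 was the only 3a member called in TB, and Cyp3a16 was called in WT. Cyp3a11, the main drug-metabolizing 3a enzyme of mouse liver and the classical PXR target, had TB arrays at 10.81, 10.62 and 10.70 at ZT 0. They stood at 9.34, 10.37 and 8.65 at ZT 8 and at 8.45, 9.97 and 9.07 at ZT 12. All TB arrays of ZT 0 lay above all TB arrays of ZT 8, 12 and 16. The TB amplitude was 0.80 ± 0.176, a peak over trough of 3.01-fold, with a peak at ZT 23.3 (limma adjusted p = 0.0122). In WT the arrays stood at 10.15, 9.44 and 10.21 at ZT 0 and at 10.17, 10.83 and 8.76 at ZT 12, and the amplitude was 0.065 ± 0.176 (limma adjusted p = 0.986). The lowest of these WT values came from the array with muscle transcripts. The unadjusted p for a difference in rhythm was 0.00631 (limma adjusted p = 0.985). The TB call was lost without TB ZT 12 replicate 1 (adjusted p = 0.0629). It was also lost with Xist as a covariate and with time as a factor of 6 levels. Averaged over time Cyp3a11 differed by −0.36 ± 0.174 (limma adjusted p = 0.441), with −0.63 among the larger and 0.18 among the smaller set of arrays, so the sign was not shared. Within the sets the TB amplitudes were 0.91 (larger) and 0.77 (smaller), and the WT amplitudes 0.32 and 0.45, with opposed peaks at ZT 9.89 (larger) and 22.1 (smaller). Both WT amplitudes within the sets were above the pooled one, because curves with opposed peaks largely cancel when they are pooled. The nearly flat pooled WT curve thus does not show that WT was flat within each set. Why the peaks were opposed was not tested. The smaller set had 1 WT array at each ZT, and its ZT 12 array was the one with muscle transcripts.

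Cyp3a44, a female-predominant relative, had TB arrays at 6.32, 6.03 and 6.18 at ZT 0 and at 4.63, 5.17 and 5.12 at ZT 12. Its TB amplitude was 0.60 ± 0.116 with a peak at ZT 23.5 (limma adjusted p = 0.00267). This call held with each of the 36 arrays left out. TB amplitudes within the sets were 0.71 (larger) and 0.49 (smaller), and those in WT 0.12 and 0.35, with peaks at ZT 10.1 and 20.3. The WT arrays were at 5.54, 4.50 and 5.62 at ZT 0 and at 5.30, 5.69 and 5.27 at ZT 12, with an amplitude of 0.057 ± 0.116 (limma adjusted p = 0.973). The TB arrays lay above the WT arrays at ZT 0 and below them at ZT 8, 12 and 16. The probe set was weak, with means of 5.53 in WT and 5.40 in TB, so these differences are understated. The unadjusted p for a difference in rhythm was 0.00319, the smallest of the members.

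Cyp3a25 peaked in TB at ZT 3.40, after the TB peaks of Cyp3a11 and Cyp3a44, with an amplitude of 0.60 ± 0.136 (limma adjusted p = 0.0160). The TB arrays stood at 9.79, 9.04 and 9.37 at ZT 4 and at 8.53, 8.53 and 6.85 at ZT 16. All 3 arrays of ZT 4 were above all 3 of ZT 16. Without TB ZT 16 replicate 3 the amplitude was 0.42 (adjusted p = 0.0718), and without TB ZT 4 replicate 1 it was 0.54 (adjusted p = 0.0534). In WT the amplitude was 0.36 ± 0.136 with a peak at ZT 8.58 (limma adjusted p = 0.255). Averaged over time the gene differed by 0.30 ± 0.141 (limma adjusted p = 0.411).

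At ZT 0 all 7 members of subfamily 3a had a positive TB minus WT difference, with a median of 0.775, but Cyp3a13, at 0.01, was at −0.30 without TB ZT 0 replicate 1. For 5 of the 7 (Cyp3a11, Cyp3a16, Cyp3a25, Cyp3a44 and Cyp3a59) every TB array lay above every WT array, where 4.27% of all genes did so. None of these differences passed the threshold (background 0%), and the probe sets of these relatives may share signal. At ZT 0 Cyp3a44 differed by 0.96 ± 0.277, Cyp3a25 by 1.01 ± 0.345, Cyp3a11 by 0.77 ± 0.426 and Cyp3a16 by 0.49 ± 0.149 (SE, n = 3 per genotype). Cyp3a59 differed by 1.39 ± 0.363 (limma adjusted p = 0.754), with TB arrays at 10.87, 8.09 and 8.43 and WT arrays at 7.67, 7.58 and 7.97. Without TB ZT 0 replicate 1 the difference was 0.52, and without TB ZT 0 replicate 2 it was 1.91 (adjusted p = 0.0419). Without TB ZT 0 replicate 1 the other differences at ZT 0 were 0.89 for Cyp3a44, 0.82 for Cyp3a25, 0.73 for Cyp3a11 and 0.48 for Cyp3a16. WT ZT 0 replicate 2 was the highest or the lowest array for 15.8% of the members, against 5.64% of all genes. It was the lowest array of both genotypes for Cyp3a16 and Cyp3a59. In its group it was also low for Cyp3a44 (4.50 beside 5.54 and 5.62) and Cyp3a11 (9.44 beside 10.15 and 10.21). For Cyp3a25 it was not the lowest (8.04 beside 7.96 and 8.29). Its part in the 3a differences was not tested. At ZT 16 the median of the 7 was −0.42, and Cyp3a16, Cyp3a44 and Cyp3a59 lay below the WT arrays without overlap (5.35% of all genes did so). Cyp3a16 differed there by −0.42 ± 0.149 (limma adjusted p = 0.854). Cyp3a13 did not follow this course and was above all WT arrays at ZT 4 and ZT 16.

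The promoters of the 3a members rhythmic in TB, and of Cyp2c70 and Cyp2c29, are shown with AGGTCA in capitals, a sequence recognized by many nuclear receptors, among them ROR, REV-ERB and, in pairs, PXR and CAR. The stretches are at chr5:145879974-145880053 (-), chr5:145805982-145806061 (-), chr5:146009752-146009831 (-), chr19:40187318-40187397 (-) and chr19:39286894-39286973 (+) on GRCm38.p6, each written along its gene.
Cyp3a11: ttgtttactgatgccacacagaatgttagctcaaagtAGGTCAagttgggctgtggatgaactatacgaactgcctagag
Cyp3a44: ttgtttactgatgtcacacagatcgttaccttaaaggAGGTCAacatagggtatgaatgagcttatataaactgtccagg
Cyp3a25: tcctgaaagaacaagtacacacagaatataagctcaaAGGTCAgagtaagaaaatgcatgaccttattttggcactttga
Cyp2c70: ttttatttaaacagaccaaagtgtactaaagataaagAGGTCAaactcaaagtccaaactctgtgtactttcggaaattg
Cyp2c29: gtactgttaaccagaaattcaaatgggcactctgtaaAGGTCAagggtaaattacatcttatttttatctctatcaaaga
AGGTCA was present on either strand in 18 of 49 member windows (36.7%) and in 18.13% of 27025 genes. It was in 7 of the 11 windows of members rhythmic in either genotype. It was also present in Cyp3a57 and Cyp3a59, which were not called rhythmic, and the 250 bases upstream of Cyp3a11 and Cyp3a44 were 71.7% identical, so these windows are not independent. The Cyp3a25 stretch holds a second match on the other strand that is not in capitals.

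Among the remaining members, Cyp2j6 was rhythmic in TB with an amplitude of 0.31 ± 0.072 and a peak at ZT 22.9 (limma adjusted p = 0.0197). The TB arrays stood at 8.77, 8.47 and 8.89 at ZT 20 and at 8.10, 8.15 and 7.94 at ZT 12. The WT arrays stood at 8.86, 8.69 and 8.61 and at 8.27, 8.61 and 8.33. In TB the arrays of these times did not overlap, and at ZT 12 and ZT 16 all TB arrays lay below all WT arrays. Its TB call was lost without TB ZT 0 replicate 3, TB ZT 8 replicate 1 or TB ZT 12 replicate 3 (adjusted p 0.0515 to 0.0626). The window of Cyp2j6 was the only 1 of the 49 with the E-box CACGTG, against 8.09% of all genes. The stretch at chr4:96553653-96553732 (-) is shown with that match in capitals, at position −44.
Cyp2j6: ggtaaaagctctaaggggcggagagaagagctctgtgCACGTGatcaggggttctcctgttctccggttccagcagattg

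Cyp2r1, a vitamin D hydroxylase, was rhythmic in TB with an amplitude of 0.30 ± 0.063 and a peak at ZT 23.9 (limma adjusted p = 0.00726). TB arrays were at 8.60, 8.71 and 8.52 at ZT 4 and at 7.59, 8.00 and 8.06 at ZT 12, without overlap. The WT amplitude was 0.20 ± 0.063 with a peak at ZT 1.69 (limma adjusted p = 0.110). At ZT 12 the difference between the genotypes was −0.31 ± 0.144 (limma adjusted p = 0.649). Without TB ZT 12 replicate 1 the TB amplitude was 0.24 (adjusted p = 0.0523).

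Cyp2g1, known from the nasal epithelium, was rhythmic in both genotypes with a peak in the late light phase. WT arrays stood at 6.33, 6.46 and 6.38 at ZT 8 and at 5.35, 5.11 and 5.07 at ZT 20. TB arrays stood at 6.64, 6.75 and 6.25 at ZT 8 and at 5.46, 5.86 and 5.41 at ZT 20. In each genotype these times did not overlap. The WT amplitude was 0.63 ± 0.110 (peak ZT 9.76, limma adjusted p = 6.8e-04) and the TB amplitude 0.47 ± 0.110 (peak ZT 9.20, limma adjusted p = 0.0211). TB ZT 0 replicate 1, at 6.81, was the highest of all 36 arrays, beside 5.07 and 5.20 in its group. Without it the TB amplitude was 0.60 (adjusted p = 3.5e-05). The TB call was lost without TB ZT 0 replicate 3, TB ZT 8 replicate 1 or TB ZT 8 replicate 2 (adjusted p 0.0564 to 0.0666).

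No family 1 gene was called over all 36 arrays. Cyp1a1, the most inducible target of the aryl hydrocarbon receptor, lay between 4.98 and 5.62 in WT and between 4.98 and 5.94 in TB, and differed by 0.017 ± 0.067, with −0.074 (larger set) and 0.20 (smaller set). Cyp1a2, which metabolizes caffeine in pericentral hepatocytes, differed by −0.17 ± 0.087 (limma adjusted p = 0.477), with −0.32 (larger set, adjusted p = 0.0292) and 0.13 (smaller set). Its lowest, median and highest arrays were at 11.46, 11.89 and 12.11 in WT and at 11.05, 11.70 and 12.32 in TB. Cyp1b1, an estrogen hydroxylase found mostly outside the liver, had TB arrays at 5.55, 5.57 and 5.28 and WT arrays at 4.99, 5.21 and 4.47 at ZT 0. The groups did not overlap there, and the difference was 0.57 ± 0.128 (SE, n = 3 per genotype; limma adjusted p = 0.448). WT ZT 0 replicate 3, at 4.47, was the lowest of all 36 arrays. At ZT 20 the groups were apart in the other direction, with TB arrays at 5.19, 5.11 and 5.18 and WT arrays at 5.25, 5.28 and 5.24. The probe set was weak, and averaged over time the difference was 0.091 ± 0.052. Cyp2e1, which oxidizes ethanol and acetaminophen, differed by 0.080 ± 0.038 (limma adjusted p = 0.438) and had the smallest SD within groups of all members, 0.096. Cyp2f2, which activates naphthalene, differed by −0.062 ± 0.054 (limma adjusted p = 0.714), with −0.13 (larger set) and 0.070 (smaller set).

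Over the 342 pairs of member and ZT none was called, beside 0.00451% of all genes at ZT 8 and 0% at the other times. Counts of 1 arose when WT ZT 20 replicate 2 or TB ZT 4 replicate 1 (both Cyp2c55 at ZT 8, adjusted p 0.0199 and 0.0477) or TB ZT 0 replicate 2 (Cyp3a59) was left out. At an unadjusted p under 0.05 there were 10 members at ZT 0 (4.74% of all genes), 1 at ZT 4 (3.26%), 7 at ZT 8 (5.3%), 1 at ZT 12 (7.4%), 4 at ZT 16 (5.38%) and 0 at ZT 20 (1.81%). Several of the 10 depended on TB ZT 0 replicate 1. Without that array the ZT 0 difference went from −0.77 to 0.028 for Cyp2d9 and from −0.68 to −0.23 for Cyp2d13. It went from 0.58 to 0.20 for Cyp2c69 and from 1.39 to 0.52 for Cyp3a59. Cyp1b1, Cyp2b9, Cyp2d22, Cyp3a16, Cyp3a25 and Cyp3a44 kept more of their difference, such as 0.57 to 0.54 for Cyp1b1. The unadjusted count without that array was not computed. The dependence of the difference on ZT was called for no member and for 0% of all genes, and 9 members (15.8%) had an unadjusted p under 0.05 against 2.48% of all genes. Besides Cyp2c55, the smallest were Cyp3a16 (0.00286), Cyp1b1 (0.00306) and Cyp3a44 (0.00569). Members with all 3 TB arrays above all 3 WT arrays numbered 6 at ZT 0 (4.27% of all genes), 2 at ZT 4 (4.8%), 1 at ZT 8 (3.54%), 1 at ZT 12 (6.79%), 2 at ZT 16 (7.98%) and 3 at ZT 20 (3.26%). Those with all TB arrays below numbered 1 at ZT 0 (2.2% of all genes), 4 at ZT 4 (4.58%), 4 at ZT 8 (5.84%), 5 at ZT 12 (4.25%), 9 at ZT 16 (5.35%) and 3 at ZT 20 (3.3%). The 9 at ZT 16, 15.8% of the members, were Cyp2a4, Cyp2a5, Cyp2c50, Cyp2d9, Cyp2j6, Cyp2u1, Cyp3a16, Cyp3a44 and Cyp3a59.

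**Figure D4:**
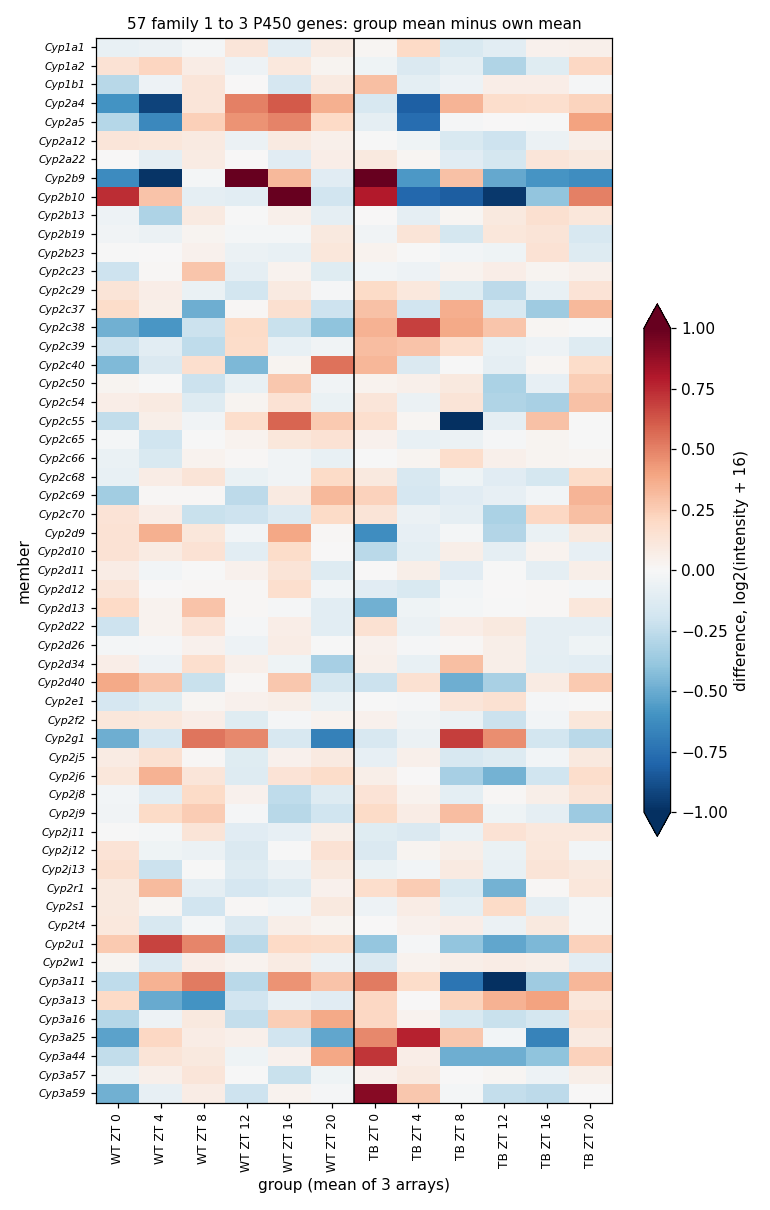
Mean of 3 arrays in each of the 12 groups minus the member's own mean over the groups, in log2(intensity + 16), for all 57 members (colour scale limited to −1 and 1). Cyp2a4 and Cyp2a5 are blue at ZT 4 in both genotypes, and most 3a members are red at ZT 0 in TB.

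The largest spread within groups was that of Cyp2b9, a female-predominant enzyme, with an SD of 1.31 log2. It stood at 10.86 in WT ZT 12 replicate 1, at 10.15 and 10.01 in TB ZT 0 replicates 1 and 3 and at 9.13 in TB ZT 8 replicate 1. In the other 32 arrays it was at 7.92 or below, so high arrays occurred in both genotypes. Next were Cyp2b10 (0.73), Cyp2u1 (0.64), Cyp2c38 (0.64) and Cyp2c40 (0.58). Cyp2u1, a fatty acid hydroxylase, was at 7.31 in TB ZT 0 replicate 1 beside 10.05 and 10.33 in the same group. It was at 7.88 in TB ZT 8 replicate 1 beside 10.25 and 9.54. All other arrays were at 8.60 or above.

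TB ZT 0 replicate 1 was the highest or the lowest of all 36 arrays for 15 of 57 members (26.3%), against 7.34% of all genes. Cyp2d9, a male-predominant testosterone hydroxylase, stood at 8.63 there and between 10.20 and 11.35 elsewhere. The male-predominant Cyp4a12a, Cyp4a12b and Cyp7b1, which are no members, stood at 4.89, 6.24 and 8.96 there, below all other arrays. Socs2, a target of growth hormone signalling, was at 9.51, its highest value. Y-linked genes in this array were in the range of the others, with Eif2s3y at 7.89 and Xist at 5.20. What sets this array apart was not tested. Cyp2d9 differed by −0.33 ± 0.151 (limma adjusted p = 0.407) with it and by −0.20 without it. Cyp2u1 differed by −0.51 ± 0.196 (limma adjusted p = 0.304) with it and by −0.35 without it. Of 5 male-predominant P450 genes, 0 had a positive difference (median −0.48), and of 8 measured female-predominant ones 5 had (median 0.078). None of either list was called for the averaged difference. The 2d subfamily had 7 of 9 members lower in TB, with a median of −0.096, where 53.9% of all genes were higher. In the larger array set all 2d members but Cyp2d22 and Cyp2d34 were lower. In the smaller set all but Cyp2d9 and Cyp2d12 were higher, so the direction was not shared.

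**Figure D5:**
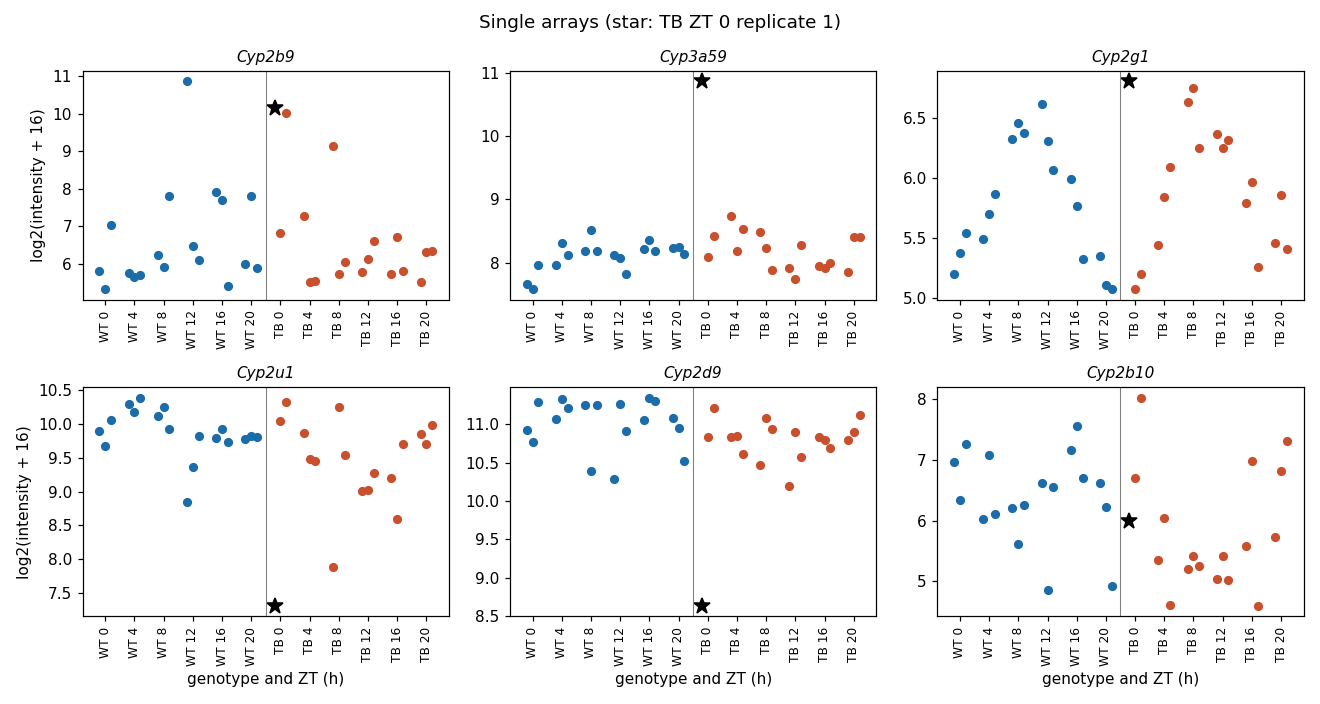
Values of 6 members in each of the 36 arrays by genotype and ZT in h (WT blue, TB red, star for TB ZT 0 replicate 1), in log2(intensity + 16). The starred array is the highest for Cyp3a59 and Cyp2g1 and the lowest for Cyp2u1 and Cyp2d9, and Cyp2b9 is at 9.13 or above in 4 arrays.

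Of the genes that regulate or serve P450 enzymes, lists chosen with earlier results known gave the following. Among 20 measured xenobiotic receptors and liver factors 0 differed between TB and WT. Ahr differed by 0.22 ± 0.078 (limma adjusted p = 0.248) and Cebpa by −0.16 ± 0.058 (limma adjusted p = 0.278). In WT 2 of the 20 were rhythmic, Ppara (amplitude 0.54, peak ZT 11.4) and Nr1i2, which encodes PXR (amplitude 0.25 ± 0.068, peak ZT 13.3, limma adjusted p = 0.0483). In TB 5 were rhythmic, Ppara, Cebpb, Nr0b2, Rxra and Nfe2l2, and Nr1i2 had nearly the same amplitude, 0.25, with limma adjusted p = 0.0521. Nr1i3, which encodes CAR, had amplitudes of 0.41 in WT (limma adjusted p = 0.0509) and 0.23 in TB (limma adjusted p = 0.477).

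Of 10 PAR bZIP and clock input genes 10 were rhythmic in WT and 8 in TB. Dbp had amplitudes of 2.34 and 2.25 in WT and TB. Hlf had amplitudes of 0.36 in WT and 0.20 in TB (limma adjusted p = 0.131). Alas1, the rate-limiting enzyme of heme synthesis, was rhythmic in both genotypes with amplitudes of 0.99 (peak ZT 14.4) and 0.94 (peak ZT 12.3), and 2 of 8 heme genes were called in WT and 1 in TB. Of 5 measured electron donors and partners, Cyb5b was rhythmic in TB (amplitude 0.34 ± 0.063, limma adjusted p = 0.00168). None of the 5 differed between the genotypes, and Fdx1 had the smallest adjusted p (−0.29 ± 0.066, limma adjusted p = 0.0624). Because these are bulk livers, a change in the share of hepatocytes that make an enzyme and a change in RNA per hepatocyte cannot be told apart.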

How the data were processed

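Liver RNA of 36 mouse samples was measured on 1-colour Affymetrix arrays. Each deposited value is the intensity of a probe set on a linear scale, made with Affymetrix Expression Console 1.1.1 and PLIER 2.0 per the submitters' processing notes. How PLIER was set, and whether arrays were scaled to each other, is not given in the sources used here. Medians per array ran from 36.3 to 43.3, and 23.0% of values were under 16. With 3 arrays per group, their number limits the precision.

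Groups came from the sample titles. Of 41345 probe sets, 23521 had 1 gene symbol in the platform annotation, 1814 several and 16010 none, which gave 22180 genes. Values were turned into log2(value + 16) with no filter. Tests used limma 3.58.1 in R 4.3.3: 1 fit with 12 group means and 1 with a 24 h cosine and sine per genotype, Benjamini-Hochberg over all genes, two-sided or F tests, checked on simulated data. Named were, per test, members past 0.05 (up to 10) or else the 4 with the smallest p, the 2 with the smallest p at each ZT, the 5 with the largest SD within groups, 16 fixed members, and up to 4 genes per list. Other genes, such as Cyp2c39, Cyp2c50, Cyp2d13, Cyp2a22, Cyp2b19, Cyp2b23, Cyp3a57 and Nr1i3, and the motif TTATGCAA, were chosen after their values or windows were seen. The members and lists were chosen with earlier results of these data known. Alternatives covered pseudocount, normalization, filter, probe set choice, replicate block, Xist covariate, array sets, weights, variance trend, a time factor and each array left out. Promoters are RefSeq windows on GRCm38.p6.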

Additional observations from a re-analysis of the deposited data

How the results depend on the processing

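The counts of members called under the chosen setting were 0 for the averaged difference, 0 for single ZT, 0 for its dependence on ZT, 4 for the WT rhythm, 10 for the TB rhythm and 0 for the difference in rhythm. With all arrays kept and the array set as a block, the count was 0 for the averaged difference (0.681% of all genes). The block gave 4 for the WT rhythm (9.03%) and 10 for the TB rhythm (7.48%), the same members as under the chosen setting. The WT share of members, 7.02%, was then below that of all genes. The larger array set alone gave 5 for the averaged difference (5.19% of all genes), 2 for single ZT and 5 for the TB rhythm (4.26%). Array weights gave 4 for the averaged difference (2.82%) and 3 for single ZT. They gave 6 for the WT rhythm (10.1%) and 12 for the TB rhythm (8.67%). For single ZT the share of all genes was not computed for the larger array set alone or with array weights. The smaller array set alone gave 0 for both rhythms, with fewer arrays, and single ZT could not be fitted there with 1 array per group. Xist as a covariate gave 6 for the TB rhythm (3.81%) and time as a factor of 6 levels gave 5 (2.17%). Those 5 were Cyp2a4, Cyp2c55, Cyp2c70, Cyp2r1 and Cyp3a44. For the WT rhythm the time factor gave 3 (2.69%), Cyp2a4, Cyp2g1 and Cyp3a16. The cause of these moves was not tested. With 1 array left out the counts ran from 0 to 2 for the averaged difference, 0 to 1 for single ZT, 0 to 0 for the dependence on ZT, 3 to 5 for the WT rhythm, 5 to 11 for the TB rhythm and 0 to 0 for the difference in rhythm. Of 18 pairs of WT and TB arrays with the same number at 1 ZT 14 correlated above 0.1 (lowest −0.052), and at each ZT the smaller set held the same number in both genotypes. As not every pair was above 0.1 and no label states a pairing, the arrays were not treated as pairs. No fit with pairs within a ZT was run, so what such pairs would change is not known. With the replicate block the counts were 0, 0, 0, 4, 9 and 0. Weak probe sets limit what can be seen for 16 members.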

Other observations

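The 35 P450 genes of families 4 and above, which act on fatty acids, bile acids, sterols and retinoids, gave 0 calls for the averaged difference, 2 rhythms in WT and 2 in TB. Cyp8b1, the sterol hydroxylase that sets the share of cholic acid, had the smallest adjusted p, with means of 10.11 in WT and 9.56 in TB, a difference of −0.55 ± 0.133 (SE, n = 18 per genotype, limma adjusted p = 0.0854). Cyp7a1, the rate-limiting enzyme of bile acid synthesis, was rhythmic in WT with an amplitude of 0.87 ± 0.146 and a peak at ZT 15.4 (limma adjusted p = 3.9e-04), and had an amplitude of 0.52 ± 0.146 in TB (limma adjusted p = 0.0703). In TB the called rhythms were those of Cyp4f15 (amplitude 0.26 ± 0.059, limma adjusted p = 0.0144) and Cyp4f14 (amplitude 0.28 ± 0.074, limma adjusted p = 0.0457), both fatty acid hydroxylases.

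Of 11 measured genes of growth hormone and STAT5 signalling 0 differed between the genotypes in limma, 2 had an unadjusted p under 0.05, and Stat5b was rhythmic in both. TB ZT 8 replicate 1 shared several features of TB ZT 0 replicate 1, with Cyp2u1 at 7.88, Cyp2c39 at 7.14, Cyp4a12a at 6.60 and Socs2 at 9.20. WT ZT 12 replicate 1 had the highest Cyp2b9 value together with Cyp4a12a at 7.34 and Cyp4a12b at 7.31. What these arrays have in common was not tested.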
